A study of Homo sapiens with 8 samples.

Results

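Brazilin was compared directly with acetylated brazilin in MDA-MB-231 cells, an established human line from a triple-negative breast cancer. The comparison was made over the genes that the authors listed as changed by each compound. Of 2998 genes listed in the 3 deposited tables, 84 stood in both the brazilin table and the acetylated brazilin table. These were 2.91% of the 2885 genes listed for brazilin and 43.5% of the 193 listed for acetylated brazilin. The 8 samples formed 4 groups of 2, which were cells given unmodified brazilin at 20 µM for 48 h, cells given acetylated brazilin at the same dose and time, cells given methylated brazilin likewise, and untreated cells cultured for 48 h. Compounds were added at seeding and renewed each day, and the sources used here do not say if the untreated cells were given solvent. All groups were of 1 cell line, and the labels do not state whether the pair of samples in a group came from separate cultures. An error that rests on them may therefore be technical.

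Brazilin is a phenolic compound of sappanwood and brazilwood, with free hydroxyl groups on its aromatic rings. In an acetylated derivative, hydroxyl groups carry acetyl groups as esters, and the sources used here do not give how many of them do so. Catechols of this kind are oxidised readily to quinones, and electrophiles of that class are known activators of the transcription factor NRF2. NRF2 drives the genes of glutathione synthesis, of heme breakdown by heme oxygenase and of iron storage in ferritin.

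The deposited values are group means in FPKM, fragment counts scaled to transcript length and to the mapped fragments of a library, with no value for a single sample. The direct contrast was the log2 ratio of the brazilin mean to the acetylated brazilin mean, so a positive value means higher with brazilin. Its error was derived from the q-values of the authors' deposited tables, with 95% intervals given below, and the depth behind the means is unknown. All 84 genes had passed the authors' criteria against the same untreated samples with each compound, so their difference from untreated cells is given as description. The criteria also limited which errors could enter, since a gene with an error large against its fold change would not have been listed. Among the members the smallest absolute log2 fold changes in the authors' deposited tables were 0.51 for brazilin, of ATP5MK, and 0.50 for acetylated brazilin, of KLHDC8B. Their largest q-values there were 0.0379, of TMEM8B with brazilin, and 0.0499, of ROGDI with acetylated brazilin. Genes just outside the criteria have no values here. Of the markers chosen for cell type, 4 of 7 mesenchymal ones had a value, from 1.37 FPKM of SNAI1 to 356 FPKM of FN1 in untreated cells, and 5 of 10 epithelial ones, from 0.705 FPKM of ESRP2 to 34.7 FPKM of CLDN7. Of 6 endothelial and fat markers 2 had a value, PECAM1 at 1.345 FPKM and KDR at 0.595 FPKM, and of 6 leukocyte markers 1, ITGAM at 0.055 FPKM. The remaining markers have no values here, and none of the 12 is among the 84 genes.

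At equal dose and time, 34 of the 84 genes (40.5%) differed between the compounds at an adjusted p under 0.05, by a two-sided test of the log2 ratio over its error with Benjamini-Hochberg adjustment over the 84 genes. Brazilin gave the higher level in 11 genes (13.1%) and the lower level in 23 (27.4%). RELN, RGS4, RGS2, TFPI2, TRIML2, ATP5MK and CH25H were at least 2-fold higher with brazilin. At least 2-fold lower were 10 genes, led by SLC22A31, ITGA1, OLAH and ASB2. The other 50 genes did not pass, and the median log2 ratio over all 84 was -0.08, with quartiles of -0.60 and 0.18. The errors ranged from 0.06 for FTH1 to 2.87 for PAK6 on the log2 scale, with a median of 0.24. When p-values were adjusted over all 2994 genes of either table, the genes without a value for both compounds being taken as p of 1, 26 of the 34 calls were kept. CH25H, FTL, GCLM, LRRN1, LTBP3, MTRNR2L3, XAGE1B and ZC3H11B were then no longer called. When the error was instead corrected for the shared untreated samples, all 34 calls were kept and CFI, CST1, CST4, DHRS3, GNG2, MTRNR2L6, MTRNR2L10 and TMEM8B were added, which makes 42 (11 higher and 31 lower). These 8 are given below as not past the threshold, and their status depends on that choice. The correction lowered the error of every gene by the same factor. It thus took the untreated group to vary as much as the compound groups did on average in each gene, which was not tested.

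**Figure D1:**
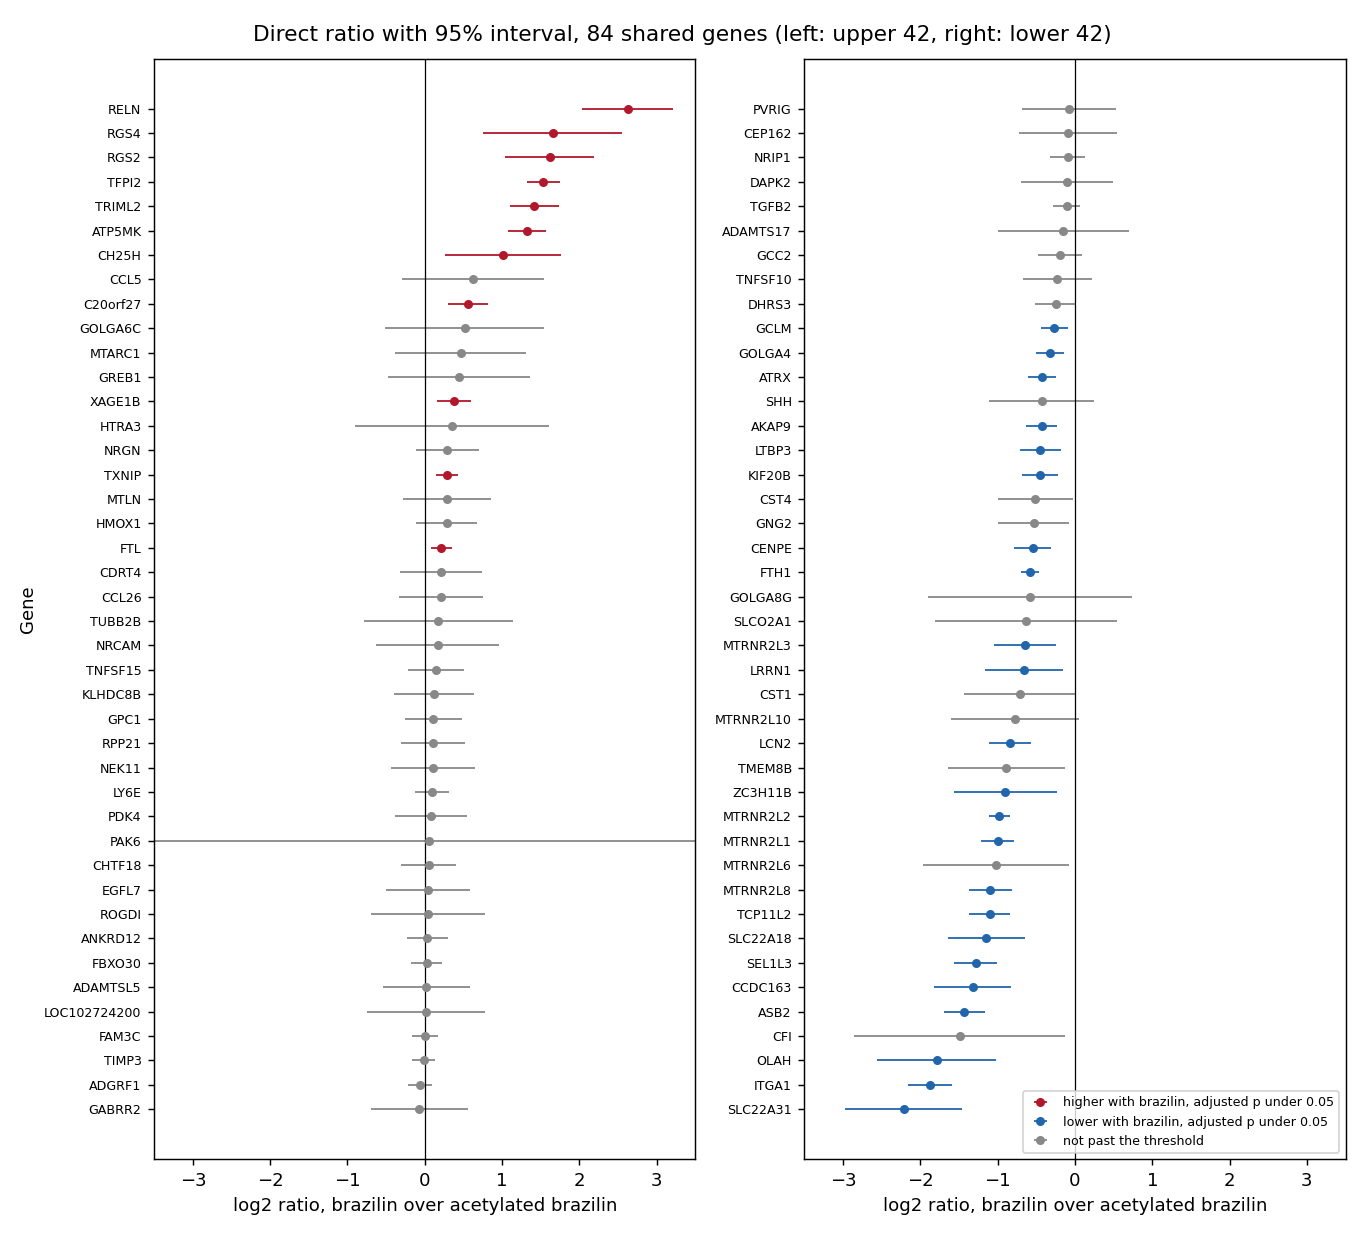
Log2 ratio of the brazilin mean to the acetylated brazilin mean in FPKM for each of the 84 genes, in order, with 95% intervals from the deposited q-values as bars. Red genes were higher with brazilin (11), blue genes lower (23) and grey genes not past the threshold (50), from RELN at 2.63 to SLC22A31 at -2.22, and the bar of PAK6 runs beyond the axis on both sides.

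Among the called genes, the untreated level lay between the levels of the compounds in 9, which are described before the others because brazilin and acetylated brazilin stood on opposite sides of untreated cells there. The position relative to untreated cells uses the same untreated samples for each compound and was not tested. Listing also asked for an absolute log2 fold change of at least 0.5 with each compound. Genes on opposite sides of untreated cells therefore had to differ between the compounds by about those limits together. That a large difference was found in them, and largely its call, was thus set by the listing. RELN encodes reelin, a secreted glycoprotein of the extracellular matrix known for guiding migrating neurons. It stood at 1.235 FPKM with brazilin, at 0.20 FPKM with acetylated brazilin and at 0.545 FPKM in untreated cells. The ratio was 6.18-fold (log2 2.63, interval 2.04 to 3.21), the largest of the 84, at low levels in all 3 groups. With 1 FPKM added to each mean it shrank to 0.90 on the log2 scale (adjusted p = 0.00896 by the error-based test), below TFPI2 at 1.49, RGS2 at 1.41 and TRIML2 at 1.36. The error was kept unchanged when FPKM was added, so a smaller ratio was set over the same error. RGS2 and RGS4 encode regulators of G protein signalling, which speed the return of G protein alpha subunits to their inactive form. RGS2 had 12.5 FPKM with brazilin, 4.075 FPKM with acetylated brazilin and 6.105 FPKM in untreated cells, a 3.06-fold ratio of the compounds (log2 1.61, interval 1.03 to 2.19). RGS4 had 2.03, 0.645 and 1.11 FPKM in the same order of groups (log2 ratio 1.65, interval 0.75 to 2.56). Both regulators thus lay above untreated cells with brazilin and below them with acetylated brazilin. With 1 FPKM added to each mean the RGS4 ratio shrank to 0.88 and was no longer called (adjusted p = 0.136 by the same error-based test). A call lost in this way cannot be told apart from an effect of the unchanged error.

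TFPI2, a secreted Kunitz-type inhibitor of serine proteases, was more abundant, at 61.0 FPKM with brazilin, 21.1 FPKM with acetylated brazilin and 30.5 FPKM in untreated cells. The compounds differed 2.90-fold (log2 1.53, interval 1.33 to 1.74). ATP5MK, a small membrane subunit of the mitochondrial ATP synthase, had 428 FPKM with brazilin, 172 FPKM with acetylated brazilin and 327 FPKM in untreated cells, a 2.49-fold ratio (log2 1.32, interval 1.07 to 1.56). Its level with acetylated brazilin was below that of untreated cells and its level with brazilin above it.

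The reverse order, with brazilin below and acetylated brazilin above untreated cells, was found in 4 called genes. SLC22A31, an orphan member of the organic ion transporter family, had the lowest ratio of all, with 0.735 FPKM with brazilin, 3.415 FPKM with acetylated brazilin and 2.27 FPKM in untreated cells. It was 4.65-fold higher with acetylated brazilin (log2 ratio -2.22, interval -2.97 to -1.46). With 1 FPKM added to each mean its ratio was -1.35, and that of ITGA1, at -1.71, was the lower. SLC22A18, another orphan transporter that RefSeq now names SLC67A1, had 4.965, 11.005 and 7.285 FPKM in the same order of groups (log2 ratio -1.15, interval -1.65 to -0.65). Both transporters thus stood above untreated cells with acetylated brazilin and below them with brazilin. SEL1L3, a member of the SEL1L family, had 4.195 FPKM with brazilin, 10.2 FPKM with acetylated brazilin and 6.615 FPKM in untreated cells (log2 ratio -1.29, interval -1.57 to -1.003). CCDC163, a coiled-coil protein gene, had 2.88, 7.205 and 4.225 FPKM (log2 ratio -1.32, interval -1.82 to -0.82). TMEM8B had the same order of means, at 0.89, 1.645 and 1.08 FPKM, but missed the threshold (log2 ratio -0.89, interval -1.64 to -0.13, adjusted p = 0.0503 by the error-based test with Benjamini-Hochberg adjustment).

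**Figure D2:**
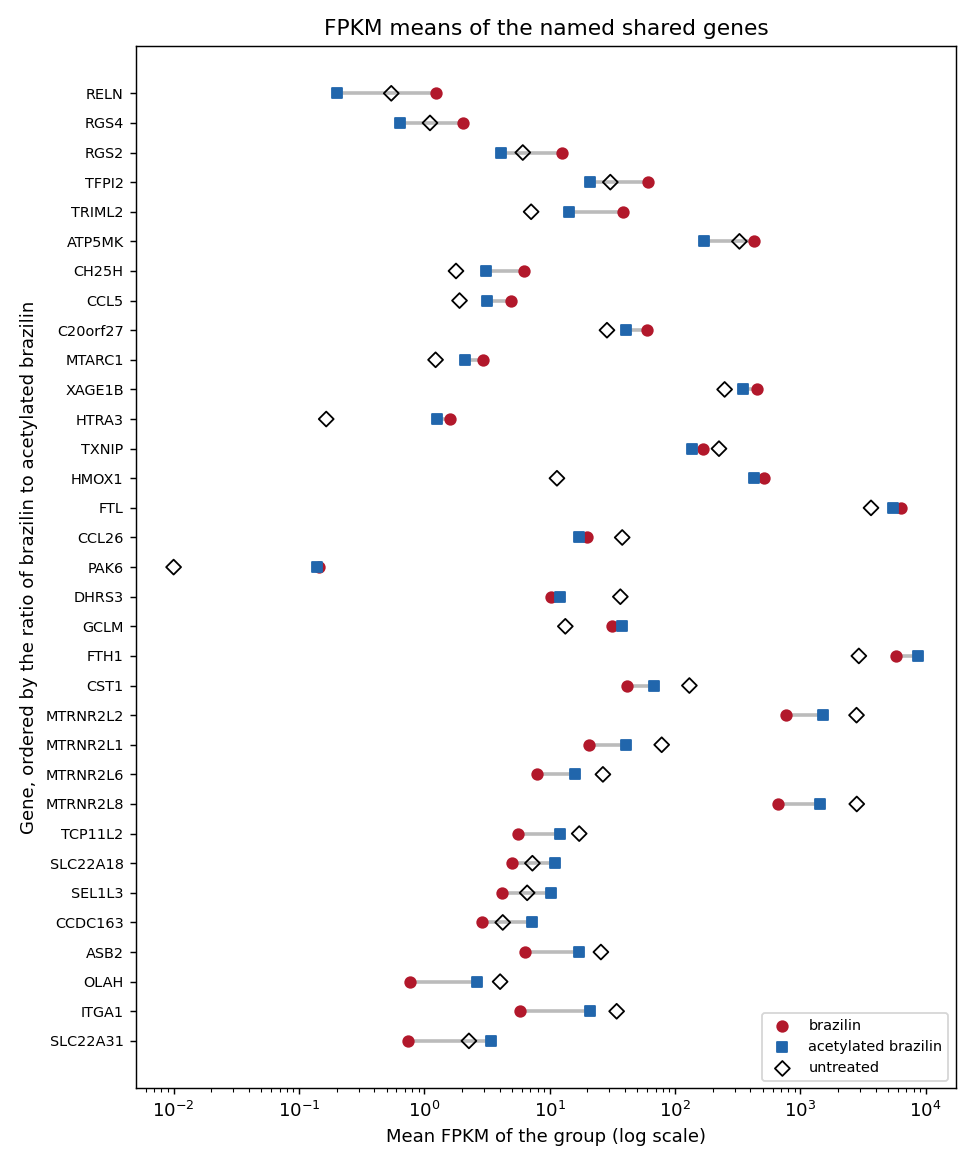
Mean FPKM of each group on a log scale for the 33 genes that the naming rule selected, ordered by the ratio of brazilin to acetylated brazilin. Red circles are brazilin, blue squares acetylated brazilin and open diamonds untreated cells; in RELN, RGS4, RGS2, TFPI2, ATP5MK, SLC22A18, SEL1L3, CCDC163 and SLC22A31 the diamond lies between the compounds.

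The 3 heme and iron genes with a value for both compounds were above untreated cells with each of them. HMOX1, the inducible heme oxygenase that cleaves heme to biliverdin, iron and carbon monoxide, stood at 516 FPKM with brazilin, 424 FPKM with acetylated brazilin and 11.4 FPKM in untreated cells. The log2 ratio of the compounds was 0.28 (interval -0.11 to 0.68) and did not pass the threshold (adjusted p = 0.308 by the error-based test). The interval leaves room for a difference of up to 0.68 in favour of brazilin. The q-value of HMOX1 was listed at 0 with each compound and was taken as 1e-300. Its error therefore follows from that floor and its large fold changes, so the test cannot decide whether the compounds differed in HMOX1. FTH1 encodes the heavy chain of ferritin, which oxidises iron on its way into the storage shell, and FTL encodes the light chain. FTH1 had 5819 FPKM with brazilin, 8725 FPKM with acetylated brazilin and 2929 FPKM in untreated cells, so that it was 1.499-fold higher with acetylated brazilin (log2 ratio -0.58, interval -0.70 to -0.46). FTL went the other way, with 6385 FPKM with brazilin, 5501 FPKM with acetylated brazilin and 3662 FPKM in untreated cells (log2 ratio 0.21, interval 0.08 to 0.35). FPKM is scaled to length, so the chains can be set beside each other. The ratio of heavy to light chain FPKM was 0.911 with brazilin, 1.59 with acetylated brazilin and 0.7998 in untreated cells. The FTL call was lost when the deposited log2 fold changes were subtracted in place of the ratio of means (difference 0.12, adjusted p = 0.137 by the same test), while that of FTH1 was kept.

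Of the 24 genes in the list of heme and iron handling, these 3 were among the 84, with 1 higher (against 13.1% of all 84), 1 lower (against 27.4%) and 1 not called. Their median log2 ratio was 0.21, beside -0.08 over all 84. GCLM, the modifier subunit of the enzyme for the first step of glutathione synthesis, was the single shared gene of the 36 NRF2 antioxidant and pentose phosphate genes. It had 31.2 FPKM with brazilin, 37.5 FPKM with acetylated brazilin and 13.3 FPKM in untreated cells, a small difference between the compounds (log2 ratio -0.27, interval -0.44 to -0.09) that was lost when the ratios were centred on their median. LCN2, lipocalin 2, a secreted protein that binds iron-carrying siderophores, was lower with brazilin, at 231 FPKM, than with acetylated brazilin, at 413 FPKM, and stood at 650 FPKM in untreated cells (log2 ratio -0.84, interval -1.11 to -0.57). GCLM and FTH1 were thus the called genes above untreated cells with each compound that were higher with acetylated brazilin.

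Promoters, meaning here the 250 bases before and 50 bases after the RefSeq start of a gene on GRCh38.p14, were matched for 64 of the 84 genes, with the first entry used where a gene had several. They were searched on both strands for 6 short motifs. The core of the antioxidant response element, TGACNNNGC, to which NRF2 binds with small MAF proteins, was in 7 of the 64 promoters (10.9%) and in 13.4% of all 35116 promoters of the table. Besides GCLM these were ITGA1 and AKAP9, which were called lower with brazilin and were below untreated cells with each compound, and EGFL7, FBXO30, MTLN and TUBB2B, which did not pass. The pattern TGANTCA, whose matches are called AP-1 matches here, was in 6 of 64 (9.38%) against 7.71% of all. It allows any base in the middle and is broader than the AP-1 site of JUN and FOS dimers, TGACTCA or TGAGTCA. The E box CACGTG was in 8 of 64 (12.5%) against 7.26%, the core of the xenobiotic response element, TNGCGTG, in 4 (6.25%) against 5.51%, the CArG box in 2 (3.12%) against 1.29%, and the cyclic AMP element TGACGTCA in 1 (1.56%) against 1.85%. A match is a description of letters and not a bound site. The promoters printed below are that of GCLM, whose antioxidant element core lies just upstream of its start, as the only member of the NRF2 list, and those of 4 called genes with an AP-1 match, TFPI2 and TRIML2 from the genes higher with brazilin and LCN2 and CCDC163 from the lower ones. Each is given 5′ to 3′ on the gene's own strand with the matched motif in capitals, and the GCLM match is on the opposite strand, where it reads as the core given above.
GCLM, chr1:93909381-93909680, minus strand: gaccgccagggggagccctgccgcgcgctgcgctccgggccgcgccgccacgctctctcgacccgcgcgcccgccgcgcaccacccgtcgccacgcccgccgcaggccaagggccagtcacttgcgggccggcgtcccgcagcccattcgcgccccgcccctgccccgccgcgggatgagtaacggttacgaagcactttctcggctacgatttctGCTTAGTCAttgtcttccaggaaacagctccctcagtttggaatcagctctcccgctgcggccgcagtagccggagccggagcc
TFPI2, chr7:93890704-93891003, minus strand: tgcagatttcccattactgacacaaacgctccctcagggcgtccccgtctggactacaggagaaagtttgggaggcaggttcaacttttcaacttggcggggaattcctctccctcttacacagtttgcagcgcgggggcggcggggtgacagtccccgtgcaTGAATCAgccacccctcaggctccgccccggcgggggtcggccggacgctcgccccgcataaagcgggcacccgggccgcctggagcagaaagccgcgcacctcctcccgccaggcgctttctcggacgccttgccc
TRIML2, chr4:188109554-188109853, minus strand: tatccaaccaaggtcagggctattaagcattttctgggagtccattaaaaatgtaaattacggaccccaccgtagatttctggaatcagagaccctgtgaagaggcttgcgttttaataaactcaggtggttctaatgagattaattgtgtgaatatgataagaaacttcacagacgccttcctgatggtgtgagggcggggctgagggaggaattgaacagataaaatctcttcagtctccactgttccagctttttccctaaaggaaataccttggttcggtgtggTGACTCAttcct
LCN2, chr9:128149203-128149502, plus strand: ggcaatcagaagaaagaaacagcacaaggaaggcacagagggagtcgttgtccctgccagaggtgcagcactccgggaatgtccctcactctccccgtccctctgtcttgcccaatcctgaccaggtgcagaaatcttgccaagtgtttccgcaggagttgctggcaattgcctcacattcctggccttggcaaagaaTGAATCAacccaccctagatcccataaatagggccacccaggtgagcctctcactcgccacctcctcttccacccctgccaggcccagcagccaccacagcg
CCDC163, chr1:45500024-45500323, minus strand: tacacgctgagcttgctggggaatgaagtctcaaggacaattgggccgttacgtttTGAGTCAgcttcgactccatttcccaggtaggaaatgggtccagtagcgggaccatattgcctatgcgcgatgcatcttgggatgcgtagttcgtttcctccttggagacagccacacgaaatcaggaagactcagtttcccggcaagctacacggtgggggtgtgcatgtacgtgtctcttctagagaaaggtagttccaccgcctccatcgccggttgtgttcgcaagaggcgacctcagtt
The AP-1 match thus occurs in promoters of genes that differed in either direction. It reads TGACTCA in TRIML2 and TGAGTCA in CCDC163, but TGAATCA, which only the broader pattern admits, in TFPI2 and LCN2. The other AP-1 matches were in GNG2 and TNFSF15, which did not pass the test.

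The remaining genes higher with brazilin were above untreated cells with each compound, apart from TXNIP. TRIML2, a gene of the tripartite motif family, had 38.4 FPKM with brazilin, 14.4 FPKM with acetylated brazilin and 7.115 FPKM in untreated cells (log2 ratio 1.42, interval 1.10 to 1.73). CH25H, cholesterol 25-hydroxylase, which makes an oxysterol with antiviral action, had 6.215, 3.08 and 1.79 FPKM in the same order of groups (log2 ratio 1.01, interval 0.27 to 1.76). The CH25H call was lost with 1 FPKM added to each mean (log2 ratio 0.82, adjusted p = 0.0835 by the error-based test with its error unchanged). Both TRIML2 and CH25H were at least 2-fold higher with brazilin, and the next genes differed by less. C20orf27, which RefSeq now names ADISSP, had 59.9 FPKM with brazilin, 40.7 FPKM with acetylated brazilin and 28.7 FPKM in untreated cells (log2 ratio 0.56, interval 0.30 to 0.82). XAGE1B, a cancer-testis antigen gene, had 453 FPKM with brazilin, 350 FPKM with acetylated brazilin and 249 FPKM in untreated cells (log2 ratio 0.37, interval 0.15 to 0.60). Its coding sequence matches that of XAGE1A at 100% identity, so its reads may belong to either copy. These genes therefore shared an order in which brazilin was highest and untreated cells lowest.

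TXNIP, the thioredoxin-interacting protein, a glucose-responsive inhibitor of thioredoxin, was below untreated cells with each compound. It had 167 FPKM with brazilin, 136 FPKM with acetylated brazilin, 119 FPKM with methylated brazilin and 224 FPKM in untreated cells, and the ratio of brazilin to acetylated brazilin was 1.22-fold (log2 0.29, interval 0.15 to 0.43). The chemokine gene CCL26 and the cystatin gene CST1 were the other shared genes that also stood among the 11 of the methylated brazilin table. CCL26 had 19.8 FPKM with brazilin, 17.1 FPKM with acetylated brazilin, 15.2 FPKM with methylated brazilin and 37.9 FPKM in untreated cells, with no difference past the threshold between the first pair (log2 ratio 0.21, interval -0.34 to 0.76). CST1, a secreted inhibitor of cysteine proteases, had 41.4, 67.8, 66.9 and 130 FPKM in that order of groups (log2 ratio -0.71, interval -1.44 to 0.01, adjusted p = 0.114 by the error-based test). Its neighbour CST4, 58.5 kb away on chromosome 20, had 11.6 FPKM with brazilin, 16.6 FPKM with acetylated brazilin and 27.8 FPKM in untreated cells (log2 ratio -0.51, interval -0.999 to -0.03). CST4 missed the threshold by the ratio of means, at an adjusted p of 0.0841 in the error-based test, and passed it by the difference of the deposited log2 fold changes.

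The genes lower with brazilin were mostly below untreated cells with each compound, and further below with brazilin. This order held in 17 of the 23. Untreated cells also had the highest mean in 46 of all 84 genes. They did so in 28 of the 50 genes that did not pass and in 1 of the 11 higher with brazilin. The 17 of 23 was not tested against these counts. That the level was further below with brazilin follows from the call itself. ITGA1, the integrin alpha 1 chain of a collagen and laminin receptor, had 5.75 FPKM with brazilin, 21.1 FPKM with acetylated brazilin and 34.2 FPKM in untreated cells, 3.67-fold higher with acetylated brazilin (log2 ratio -1.88, interval -2.16 to -1.59). It was the single shared gene of the 30 in the list of extracellular matrix and integrins. OLAH, a thioesterase that releases fatty acids from fatty acid synthase, had 0.765, 2.64 and 4.025 FPKM in the same order of groups (log2 ratio -1.79, interval -2.56 to -1.02), and its ratio was -1.04 with 1 FPKM added to each mean. ASB2, a substrate adaptor of a ubiquitin ligase complex, had 6.35, 17.1 and 25.6 FPKM (log2 ratio -1.43, interval -1.69 to -1.17). TCP11L2 had 5.615, 12.1 and 17.2 FPKM (log2 ratio -1.10, interval -1.37 to -0.84). With acetylated brazilin these 4 genes kept more of their untreated level than with brazilin. LTBP3, which binds latent TGF-beta in the matrix, LRRN1, a leucine-rich repeat membrane protein gene, and ZC3H11B, a zinc finger gene, had log2 ratios of -0.45, -0.66 and -0.90. LRRN1 and ZC3H11B were under 2 FPKM in every group, and their calls were lost with 0.1 FPKM added to each mean and the error unchanged.

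CENPE, the kinetochore kinesin that moves chromosomes to the spindle equator, had 4.13 FPKM with brazilin, 6.04 FPKM with acetylated brazilin and 8.785 FPKM in untreated cells (log2 ratio -0.55, interval -0.78 to -0.31). KIF20B, a kinesin that acts late in cell division, had 6.275, 8.58 and 12.2 FPKM in that order of groups (log2 ratio -0.45, interval -0.68 to -0.22). CENPE and KIF20B were the shared genes among the 36 of mitosis and G2/M, and both were called lower, beside 27.4% of all 84, with a median log2 ratio of -0.50 beside -0.08 over all 84. They are too few to set against that share. Among genes outside that list, ATRX, a chromatin remodeller, AKAP9, a scaffold of the Golgi and centrosome, and GOLGA4, a golgin that tethers vesicles, had log2 ratios of -0.42, -0.43 and -0.32. GCC2, another golgin, had 3.17, 3.63 and 5.18 FPKM and did not pass (log2 ratio -0.20, interval -0.48 to 0.09).

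Transcript length was set beside these values, since many of the last genes have long transcripts. The 83 genes with an annotated length were divided into 3 classes. In the longest, which began at 3823 bases, 1 of 28 genes was called higher with brazilin and 10 were called lower. In the shortest, up to 1755 bases, 6 of 28 were higher and 9 lower, and in the middle 4 of 27 were higher and 3 lower. Over all 84 genes 13.1% were called higher and 27.4% lower, and the classes were not tested against these shares. Across all 83 genes length and log2 ratio were nearly unrelated (Spearman's rho -0.03, and -0.17 over 77 genes without the MT-RNR2-like genes). These are correlations across genes of the same libraries, which are not independent. The part of length in the ratios was not tested further. The shared genes had a median annotated length of 2498 bases, against 3289 for the other genes of the brazilin table and 2393 for the other genes of the acetylated brazilin table. Their median untreated level of 6.805 FPKM stood beside 6.06 and 5.285 FPKM in those tables.

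**Figure D3:**
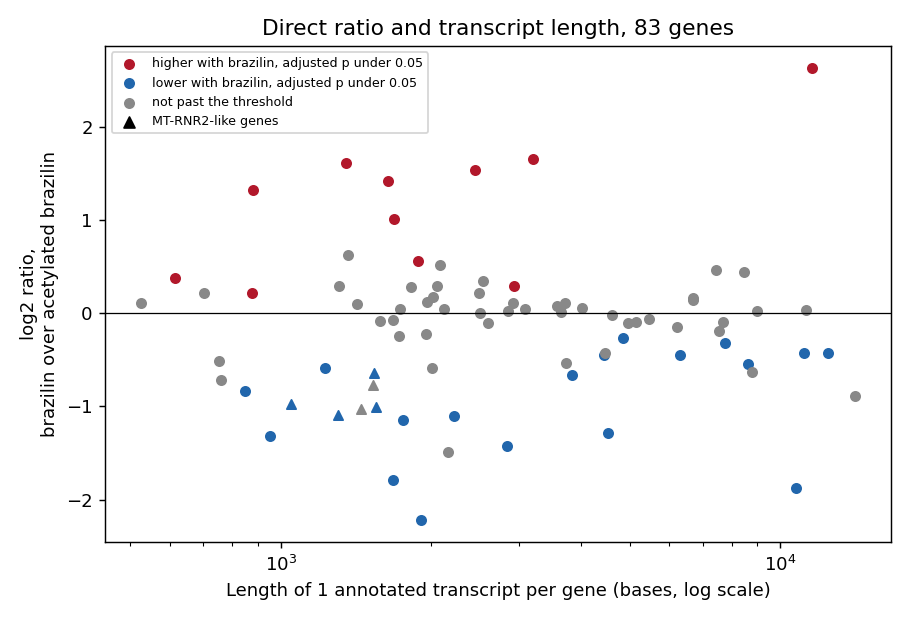
Log2 ratio of brazilin to acetylated brazilin against the length of 1 annotated transcript per gene on a log scale, for 83 genes. Red, blue and grey mark genes higher with brazilin, lower with brazilin and not past the threshold, and triangles are the 6 MT-RNR2-like genes, which lie between -1.10 and -0.65; RELN is the red point at 2.63 among the long transcripts.

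The MT-RNR2-like genes are nuclear sequences close to the gene of the mitochondrial large ribosomal RNA, which is also known for the small peptide humanin. All 6 that were shared had lower means with brazilin than with acetylated brazilin, and highest means in untreated cells. MTRNR2L2 had 772 FPKM with brazilin, 1522 FPKM with acetylated brazilin and 2807 FPKM in untreated cells (log2 ratio -0.98, interval -1.11 to -0.84). MTRNR2L8 had 668, 1428 and 2819 FPKM in the same order of groups (log2 ratio -1.10, interval -1.38 to -0.82). MTRNR2L1 and MTRNR2L3 were also called, at log2 ratios of -1.002 and -0.65, while MTRNR2L6 and MTRNR2L10, at -1.02 and -0.77, were not. Over all 84 genes 27.4% were called lower, 45 had a log2 ratio below 0, and untreated cells had the highest mean in 46. MTRNR2L1, MTRNR2L2 and MTRNR2L8 have matches of at least 98% identity within the family, up to 100% between MTRNR2L1 and MTRNR2L8, and reads of mitochondrial RNA could match them as well. The 6 are therefore not independent measurements, and their identity is uncertain. Without them the median log2 ratio of the other 78 genes was -0.01, with 11 called higher and 19 lower.

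Among the 50 genes that did not pass, 11 had a 95% interval wholly within 0.5 on the log2 scale on either side of no difference, which is 1.41-fold. They included TIMP3, an inhibitor of matrix metalloproteinases, with 34.1 FPKM with brazilin, 34.5 FPKM with acetylated brazilin and 58.0 FPKM in untreated cells (log2 ratio -0.02, interval -0.16 to 0.13). TGFB2, a transforming growth factor beta ligand, had 28.3, 30.4 and 43.1 FPKM in that order of groups (log2 ratio -0.11, interval -0.28 to 0.07). FAM3C, a secreted cytokine-like protein gene, had 78.6, 78.4 and 110 FPKM (log2 ratio 0.00, interval -0.17 to 0.18). These secreted proteins' genes stood below untreated cells to much the same extent with each compound. FBXO30, an F-box protein gene, was above untreated cells instead, at 18.8, 18.5 and 9.02 FPKM (log2 ratio 0.02, interval -0.18 to 0.23). DHRS3, a reductase that turns retinaldehyde back to retinol, had 10.2 FPKM with brazilin, 12.2 FPKM with acetylated brazilin and 36.6 FPKM in untreated cells (log2 ratio -0.25, interval -0.51 to 0.01). The interval of DHRS3 lies mostly on the side of lower levels with brazilin, and the gene was called lower with the corrected error.

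For 16 of the 50 genes the interval reached past 2-fold in at least 1 direction, so a difference of that size cannot be set aside. For CFI, MTRNR2L6 and TMEM8B the unadjusted interval did not include 0, and these 3, CST1 and MTRNR2L10 were called with the corrected error. CFI, the protease complement factor I, was at 0.185 FPKM with brazilin, 0.52 FPKM with acetylated brazilin and 1.265 FPKM in untreated cells (log2 ratio -1.49, interval -2.85 to -0.13, adjusted p = 0.0725 by the error-based test), and it has a near-identical copy. The chemokine gene CCL5 had 4.91, 3.19 and 1.91 FPKM in the same order of groups (log2 ratio 0.62, interval -0.30 to 1.54). Both intervals are wide, and that of CCL5 includes 0. MTARC1, a mitochondrial amidoxime-reducing enzyme, had 2.925, 2.12 and 1.23 FPKM (log2 ratio 0.46, interval -0.38 to 1.31). HTRA3, a secreted serine protease, had 1.60, 1.255 and 0.165 FPKM (log2 ratio 0.35, interval -0.90 to 1.60). PAK6, a p21-activated kinase whose coding sequence is shared with a readthrough gene, was listed at 0.145 FPKM with brazilin, 0.14 FPKM with acetylated brazilin and 0.01 FPKM in untreated cells, which is the smallest FPKM that the tables hold. Its error spans the whole range of the other ratios, and it supports no comparison. The genes of the TNF-family ligands TNFSF10 (TRAIL) and TNFSF15 were below untreated cells with each compound, and their log2 ratios of -0.23 and 0.14 did not pass.

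The rest of the genes that did not pass had log2 ratios between -0.63 and 0.51. The highest was GOLGA6C, a golgin gene with near-identical copies, at 0.30 FPKM with brazilin, 0.21 FPKM with acetylated brazilin and 0.65 FPKM in untreated cells (interval -0.51 to 1.54). SHH, the sonic hedgehog ligand, had 0.665 FPKM with brazilin, 0.895 FPKM with acetylated brazilin and 1.40 FPKM in untreated cells (log2 ratio -0.43, interval -1.11 to 0.25). SLCO2A1, a prostaglandin transporter, had 0.245, 0.38 and 0.655 FPKM in that order of groups (log2 ratio -0.63, interval -1.81 to 0.55). Both had errors above the median of 0.24. GPC1, a cell-surface heparan sulfate proteoglycan, had 6.0 FPKM with brazilin, 5.55 FPKM with acetylated brazilin and 3.225 FPKM in untreated cells (log2 ratio 0.11, interval -0.26 to 0.48). NRIP1, a corepressor of nuclear receptors, had 4.52, 4.83 and 8.45 FPKM (log2 ratio -0.10, interval -0.32 to 0.13). PDK4, a kinase that inhibits pyruvate dehydrogenase, had 2.705, 2.555 and 3.695 FPKM (log2 ratio 0.08, interval -0.39 to 0.55). The compounds therefore gave like mean levels of these 3 genes, on the same side of untreated cells, within intervals that leave out a 2-fold difference. NRGN, the calmodulin-binding protein neurogranin, had 19.2 FPKM with brazilin, 15.6 FPKM with acetylated brazilin and 10.3 FPKM in untreated cells (log2 ratio 0.29, interval -0.12 to 0.70). MTLN, a small mitochondrial membrane protein, had 63.3, 51.9 and 34.9 FPKM (log2 ratio 0.29, interval -0.28 to 0.85). GREB1, known as an estrogen-induced gene, had 0.775, 0.57 and 0.315 FPKM (log2 ratio 0.44, interval -0.47 to 1.36). Their means had the order of the genes called higher with brazilin, with untreated cells lowest, but the differences stayed within the error. Other genes that did not pass were ADAMTS17, ADAMTSL5, ANKRD12, CDRT4, CEP162, CHTF18, EGFL7, GABRR2, GOLGA8G, LOC102724200, LY6E, NEK11, NRCAM, PVRIG, RPP21 and TUBB2B. Their log2 ratios ran from -0.58, of GOLGA8G, to 0.21, of CDRT4. The order of means varied among them, with untreated cells highest in CDRT4 and GOLGA8G, for example, and lowest in LY6E and TUBB2B.

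Genes that passed had smaller errors at the median than those that did not. The call sets the ratio over this same error, so that order is partly built into it. The median error of the log2 ratio was 0.13 in the genes higher with brazilin, 0.14 in those lower with brazilin and 0.28 in the 50 others. Their median untreated levels were 28.7, 12.6 and 3.96 FPKM in that order of classes. The part of abundance in the calls was not tested.

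The choice of measure was checked gene by gene. The difference of the deposited log2 fold changes lay below the log2 ratio of means by a median of 0.08 over the 84 genes, with a median offset of -0.09 in the brazilin table and -0.01 in the acetylated brazilin table. By that difference 33 of the 34 calls were kept with the same sign, FTL was lost, and ADGRF1, CST4, GNG2, MTRNR2L6 and TMEM8B were added, all lower with brazilin. The measures differed by more than 0.2 in DAPK2, TMEM8B, PAK6, ADGRF1 and GOLGA6C. ADGRF1, an adhesion G protein-coupled receptor, had nearly equal means of 33.5 FPKM with brazilin and 34.9 FPKM with acetylated brazilin, against 51.0 FPKM in untreated cells, but a difference of deposited log2 fold changes of -0.45. Its direct contrast is uncertain, and the source of the mismatch was not tested.

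**Figure D4:**
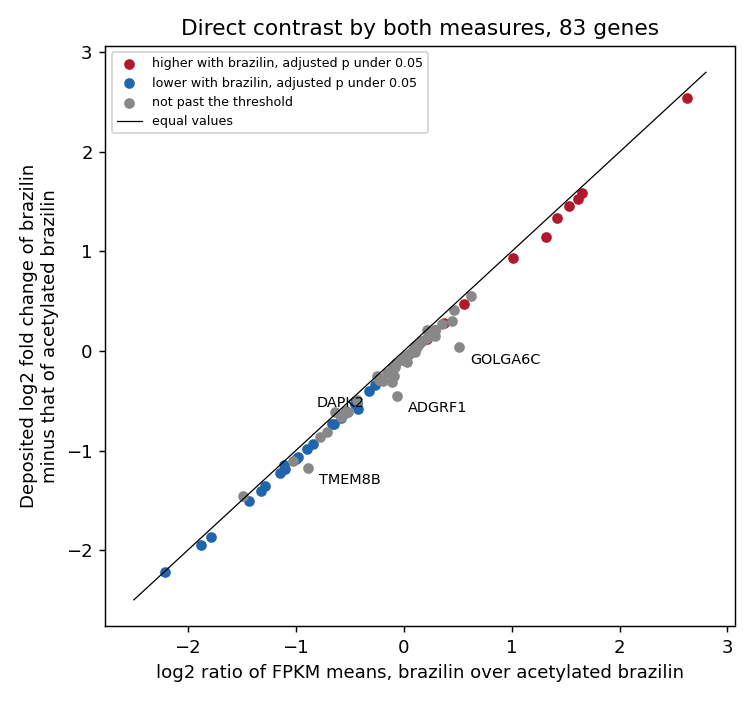
Deposited log2 fold change of brazilin minus that of acetylated brazilin, against the log2 ratio of their FPKM means, for the 83 genes with no mean at the lowest listed value. Most points lie on or just below the line of equal values (median offset -0.08), and ADGRF1, GOLGA6C, TMEM8B and DAPK2 lie furthest below it; colours mark the calls by the ratio of means.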

How the data were processed

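RNA from 8 MDA-MB-231 samples was sequenced by BGI Americas. Tools named in the submitters' processing notes are RSEM, Bowtie, HISAT, DESeq2 and StringTie, and builds named there are hg38, GRCh38 and mm10, without roles. The sources used here do not give strandedness. Per the file headers, the authors' tables give FPKM as means of a group. The deposited log2 fold changes run treated over untreated, by their sign against these means, and the deposited q-values are all under 0.05. Absolute log2 fold changes are at least 0.5. Only genes that passed are listed, and untreated means were equal between tables.

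Tables were joined on gene ID. The error of each deposited log2 fold change was its absolute value over the normal quantile of its q-value read as a two-sided p-value, an upper bound for Wald tests on unshrunken values. Values of q listed at 0 were taken as 1e-300. These were 3 genes with brazilin (HMOX1, ITGA1 and MTRNR2L2) and 2 with acetylated brazilin (HMOX1 and FTH1), whose errors depend on that floor. The errors of both compounds were summed in quadrature, which counts the shared untreated samples although they cancel in the ratio. 1 pair of compounds was compared. The 84 genes and the 25 lists (627 entries, all matched in RefSeq) were chosen with earlier results of these data known, so lists were counted and not tested. The rule named the 12 highest and 12 lowest ratios, the 6 most abundant genes and the 6 closest among strongly changed ones, all at 1 FPKM or more with a compound, HMOX1, lists with at least 3 shared genes, the genes shared with methylated brazilin, and genes at the lowest value. Other genes were named after their values were seen. Lengths came from GENCODE release 29, copies from BLAST+ 2.17.0 at 98% identity over 80% of the coding sequence, and positions from RefSeq GRCh38.p14. Scripts ran in Python 3.11.15 with scipy 1.17.1.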

Additional observations from a re-analysis of the deposited data

How the results depend on the processing

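Every setting below was also run on the 34 calls. The count ranged from 25, where an absolute log2 ratio of 0.5 was asked for as well, to 42, where the error was corrected for the shared untreated samples, and calls higher with brazilin were 26.2% to 34.4% of all calls. No total or count by direction moved by over 1.5 times under the alternative measure, centring, error, pseudocounts of 0.1 and 1 FPKM, filters, thresholds, adjustment, matching on symbols or removal of the 11 genes with a near-identical copy and the other 3 MT-RNR2-like genes (31 of 70 genes called). Of the 33 genes of the naming rule, 30 kept direction and call with the difference of deposited log2 fold changes. FTL lost its call, MTRNR2L6 gained one, and PAK6, with an untreated mean at the lowest value, reversed to -0.33. With 1 FPKM added 31 kept both, and CH25H and RGS4 lost their calls. The error was not recomputed with added FPKM, so calls lost there do not show what a matched error would give. The median log2 ratio ranged from -0.17 (difference of fold changes) to -0.05 (pseudocount of 1 FPKM). No paired analysis was possible because the tables hold no values per sample, and replicates could not be left out for the same reason. Depth is unknown, which limits what can be said of genes under 1 FPKM.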

Other observations

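Among the 2885 genes listed for brazilin, 2.91% were shared with the acetylated brazilin table, which holds 193, so a list with up to 23 members in the brazilin table and none shared is near that background. Of 35 immediate early and AP-1 genes 22 were listed for brazilin and 0 for acetylated brazilin. Of 30 genes of the integrated stress and unfolded protein response 20 and 0 were listed in that order, of 58 replication-dependent histone genes 23 and 2, with none shared, and of 21 ribosome biogenesis genes 10 and 0. Of 30 cholesterol and fatty acid synthesis genes 9 were listed for brazilin and 0 for acetylated brazilin, and of 23 p53 targets and growth arrest genes 10 and 0. Lists with few brazilin genes also had 0 for acetylated brazilin. Those listed for brazilin were 1 of 14 heat shock genes, 3 of 30 DNA replication and G1/S genes, 3 of 18 autophagy and lysosome genes and 5 of 23 apoptosis regulators. Only listed genes have values here, so the share of all measured genes listed for a compound is unknown. A gene that is not listed for a compound has no value for it here, so these counts compare the authors' lists and are not a test of a difference between the compounds. Of 30 NF-kB and inflammatory cytokine genes 16 and 4 were listed, and the shared ones were CCL5 and CCL26. The 84 genes lay on 22 chromosomes, with 10 on chromosome 7, and the closest pairs were CST4 with CST1 and CH25H with KIF20B, the second pair 494 kb apart and with log2 ratios of opposite sign (1.01 and -0.45).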
